A study of Homo sapiens with 9 samples.

Results

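CCL22, CX3CL1 and CCL17 are 3 chemokine genes that lie side by side on chromosome 16. They were examined in RIVA cells, an established line of diffuse large B-cell lymphoma, after induction of mutant BCL10. The 3 genes were picked by symbol from the 60656 genes of the deposited count table, with their rise in mutant cells already known. Their own values in the comparisons below are therefore a description, given without a test, while the genes around them and the genes of their pathways were tested. Each RIVA line carried a doxycycline-inducible plvx-Tetone lentiviral construct, selected with puromycin. The construct held no insert (vector, labelled BCL10 wild type), the BCL10 truncation S136X or the BCL10 missense mutant R58Q. All 3 groups, vector included, received 200 ng/mL doxycycline for 24 h and kept their own BCL10 gene, and each group had 3 libraries of polyadenylated RNA. The sample characteristics give the same dose figure per microlitre, whereas the treatment protocol gives it per millilitre.

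Chemokines are small secreted proteins that draw leukocytes along a gradient by binding G protein-coupled receptors on their surface. CCL17 and CCL22 share the receptor CCR4, carried by regulatory and Th2 T cells, and are best known as products of dendritic cells, activated B cells and the tumour cells of Hodgkin lymphoma. CX3CL1 (fractalkine) is made as a membrane protein with a chemokine domain on a mucin stalk, binds CX3CR1 and is shed by the proteases ADAM10 and ADAM17. BCL10 forms a complex with MALT1 downstream of the B-cell receptor, and this complex activates NF-kB.

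On GRCh38, as the table lists positions, CCL22 (ENSG00000102962.5) spans chr16:57358783-57366189, CX3CL1 (ENSG00000006210.7) spans chr16:57372477-57385044 and CCL17 (ENSG00000102970.11) spans chr16:57404767-57416063. All 3 lie on the plus strand in GENCODE. The gap from CCL22 to CX3CL1 is 6287 bases and that from CX3CL1 to CCL17 is 19722 bases, so that the cluster covers 57281 bases from edge to edge. No other listed gene lies between them, and none of the 3 overlaps another listed gene. The coding stretches below come from the principal GENCODE transcript of each gene (GRCh38, plus strand) and are shown because the spacing of the first cysteines of the mature protein separates the CC chemokines from the CX3C chemokine. Capitals mark those cysteine codons.
CCL22, codons 32 to 41, exon 2 of 3, chr16:57360457-57360486: gaagacagcgtcTGCTGCcgtgattacgtc
CX3CL1, codons 28 to 40, exon 2 of 3, chr16:57379645-57379683: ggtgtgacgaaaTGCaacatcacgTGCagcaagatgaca
CCL17, codons 29 to 38, exon 3 of 4, chr16:57415095-57415124: gtgggccgggagTGCTGCctggagtacttc
The cysteine codons are adjacent in CCL22 and CCL17, whereas 3 codons separate them in CX3CL1. The coding sequences are 93 codons long in CCL22, 94 in CCL17 and 397 in CX3CL1, the longer one holding the stalk and the membrane anchor. Of the 31-base words in the principal transcripts, 0% of CX3CL1 and of CCL17 and 9.76% of CCL22 also occur in transcripts of other genes.

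The RefSeq promoter table held 1 of the 3 genes, CCL22. Its 250 bases before the start (GRCh38.p14, plus strand) are shown because the genes that moved with it include NF-kB genes, and capitals mark a match to the kappaB consensus.
CCL22, chr16:57358533-57358782: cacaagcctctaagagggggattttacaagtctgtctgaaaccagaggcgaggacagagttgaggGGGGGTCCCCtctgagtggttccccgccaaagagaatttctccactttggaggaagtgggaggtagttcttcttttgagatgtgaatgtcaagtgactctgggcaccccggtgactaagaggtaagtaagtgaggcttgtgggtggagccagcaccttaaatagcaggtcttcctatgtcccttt
The match lies 185 to 176 bases before the start, on the plus strand. Searched on both strands, 5.21% of the 35116 promoters of that length held a match to the consensus. The STAT6 form, TTC and GAA with 4 free bases between them (5.38% of promoters), and the AP-1 form TGANTCA (6.57%) had no match in this window. These matches describe letters only.

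The libraries held between 28047713 and 33122267 counts. Levels are given on a counts-per-million scale (CPM), scaled with TMM factors, which correct for a few abundant genes taking up reads. BCL10, whose counts include both the cell's own gene and the construct, rose with S136X by a log2 fold change of 3.75 ± 0.18 (SE, adjusted p = 2.6e-05) and with R58Q by 3.44 ± 0.149 (adjusted p = 1.76e-05, edgeR quasi-likelihood test). Of the B-cell markers, PAX5 stood at 998 to 1190 CPM, CD79A at 554 to 887 CPM, MS4A1 at 364 to 686 CPM and CD79B at 90.3 to 146 CPM over all 9 libraries, while the 3 T-cell markers summed to at most 0.324 CPM. All R58Q columns carry a later date in their names than the vector and S136X columns, so that date and R58Q cannot be told apart. The study calls the libraries biologic replicates, but neither it nor the labels say whether they came from separate inductions, and p-values measure the spread between these libraries.

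CCL22, a ligand of CCR4, was the most abundant of the 3 in counts and the one whose level differed most between the mutants. It stood at 17.0, 51.6 and 28.5 CPM in the vector libraries, at 171, 278 and 257 CPM with S136X, and at 706, 589 and 964 CPM with R58Q (replicates 1, 2 and 3). No library of one group reached into another group, and the order of the levels was vector, S136X, R58Q. The group means were 32.3 ± 17.6 CPM (SD, n = 3), 235 ± 56.9 CPM and 753 ± 192 CPM. The fitted log2 fold change was 2.87 ± 0.358 (SE) with S136X and 4.54 ± 0.393 with R58Q, or 7.29-fold and 23.3-fold. R58Q exceeded S136X by 1.67 ± 0.228 on the log2 scale. By its counts CCL22 ranked between 4169 and 7734 from the top of the table in vector libraries, between 635 and 1245 with S136X, and between 93 and 213 with R58Q.

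CCL17, the other CCR4 ligand, was low without a mutant and rose by a similar fold. It stood at 2.76, 3.82 and 2.26 CPM in the vector libraries, at 42.5, 29.5 and 32.0 CPM with S136X, and at 72.6, 42.3 and 50.3 CPM with R58Q. Every mutant library exceeded every vector library, but the lowest R58Q library lay just under the highest S136X library, so that their ranges overlapped. Within the replicate pairs CCL17 was 1.71, 1.44 and 1.57 times as high with R58Q as with S136X. The means were 2.95 ± 0.793 CPM, 34.7 ± 6.88 CPM and 55.1 ± 15.7 CPM (SD, n = 3). The log2 fold changes were 3.56 ± 0.209 (SE) with S136X, 4.22 ± 0.251 with R58Q and 0.66 ± 0.206 for R58Q over S136X.

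CX3CL1, the ligand of CX3CR1, moved least of the 3. Its level was 4.51, 4.21 and 3.65 CPM in the vector libraries, 23.2, 11.8 and 13.1 CPM with S136X, and 27.5, 14.8 and 21.5 CPM with R58Q. The vector libraries lay close together and below all mutant libraries, whereas the ranges of the mutants overlapped. The means were 4.12 ± 0.438 CPM, 16.03 ± 6.26 CPM and 21.3 ± 6.38 CPM (SD, n = 3). The log2 fold changes were 1.96 ± 0.254 (SE) with S136X, 2.36 ± 0.222 with R58Q and 0.40 ± 0.293 for R58Q over S136X.

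**Figure D1:**
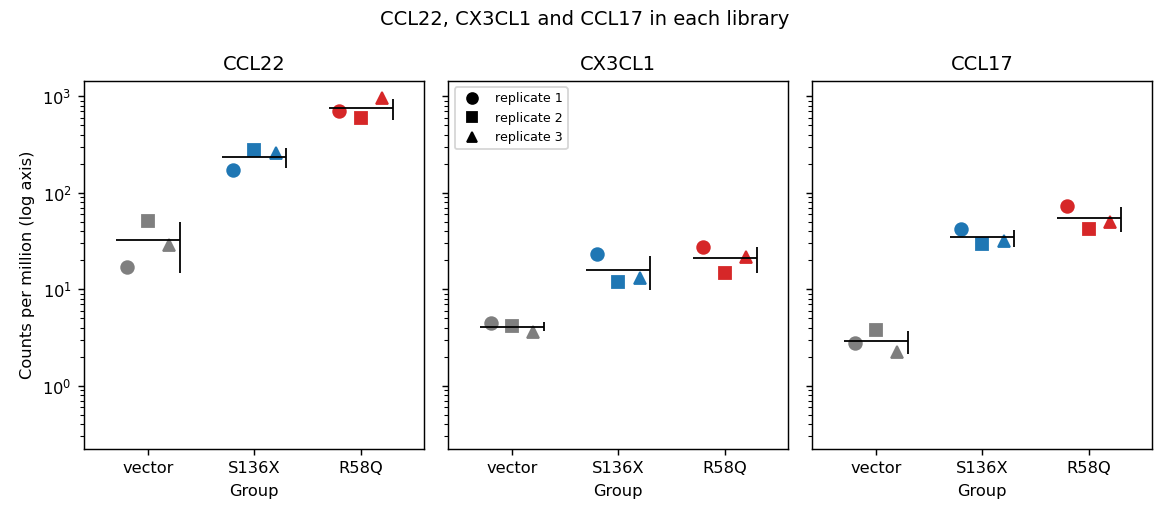
CPM levels of CCL22, CX3CL1 and CCL17 (log axis) in each of the 9 libraries, by group. Symbols are replicates 1 to 3, horizontal lines are group means and vertical lines are 1 SD. Every mutant library lies above every vector library for each gene, and the mutants are apart from each other for CCL22 only.

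All 3 genes thus had 3 mutant libraries above 3 vector libraries in both comparisons. Of all genes tested, 16% did so with S136X (of 15530) and 21.1% with R58Q (of 15435). CCL22 was 1 of the 9.45% of genes whose R58Q libraries all exceeded the S136X libraries. Since the genes were chosen for these differences, nothing is read from these counts, and both comparisons share the vector libraries. Libraries with the same replicate number were taken as pairs, though no pairing is stated. Within these pairs the CCL22 fold over vector was 10.1, 5.40 and 9.02 with S136X and 41.6, 11.4 and 33.8 with R58Q. For CCL17 the folds were 15.4, 7.73 and 14.15 with S136X and 26.3, 11.1 and 22.2 with R58Q. Those of CX3CL1 were 5.15, 2.80 and 3.59 with S136X and 6.10, 3.50 and 5.91 with R58Q. Replicate 2 had the lowest fold for each gene with each mutant, and its vector library had the highest vector level of CCL22 and of CCL17 but not of CX3CL1.

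Levels of different genes were compared per kilobase of exon sequence (2.93 kb for CCL22, 5.98 kb for CX3CL1 and 0.62 kb for CCL17, counting every annotated exon). On this scale CCL22 averaged 11.04 ± 6.01, 80.4 ± 19.4 and 257 ± 65.6 CPM per kb in vector, S136X and R58Q (SD, n = 3). The corresponding levels of CCL17 were 4.75 ± 1.28, 55.9 ± 11.1 and 88.8 ± 25.2 CPM per kb. The ranges of CCL22 and CCL17 overlapped in vector and S136X libraries, whereas in R58Q libraries CCL22 (201 to 329 CPM per kb) lay above CCL17 (68.3 to 117 CPM per kb). CX3CL1 was lowest in each group, at 0.689 ± 0.0732, 2.68 ± 1.04 and 3.56 ± 1.07 CPM per kb. The annotated exons of CX3CL1 include many bases outside its principal transcript of 3321 bases, so that its level per kb is a low estimate if the cells use that transcript.

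Together the 3 genes held most of the chemokine ligand reads in every mutant library. They made up 31.6%, 53.6% and 35.2% of all counts on chemokine ligand genes in the vector libraries, 75.1%, 77.9% and 78.3% with S136X, and 88.2%, 87.6% and 90.2% with R58Q. The groups did not overlap, but the 3 genes were picked for their rise in mutant cells, so that nothing is read from this. CCL22 alone accounted for 22.1% to 46.3% in vector, 54.3% to 67.8% with S136X and 77.3% to 84.0% with R58Q. The share of CCL17 was 2.32% to 3.60% in vector and 7.18% to 13.5% with S136X, and 4.38% to 7.94% with R58Q, where CCL22 counts were higher. Counts of CCL22 were 6.15, 13.5 and 12.6 times those of CCL17 in vector libraries, 4.03, 9.44 and 8.02 times with S136X, and 9.73, 13.9 and 19.2 times with R58Q. The ratio of the CCR4 ligands therefore overlapped between vector and each mutant, but not between the mutants. Among libraries of the same replicate number it was lower with S136X than in vector each time, and higher with R58Q each time.

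**Figure D2:**
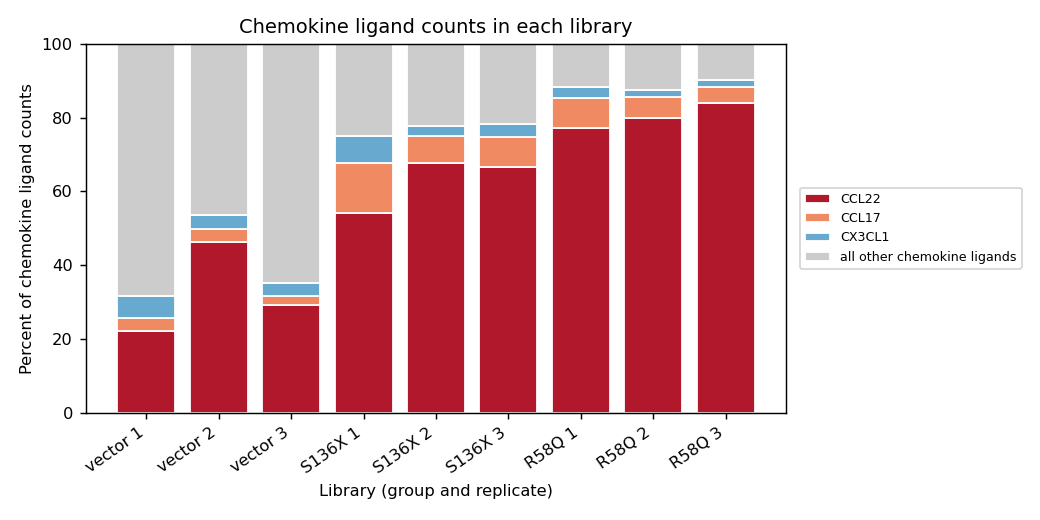
Percent of all counts on chemokine ligand genes held by CCL22, CCL17, CX3CL1 and the other ligands together, in each of the 9 libraries. The 3 genes hold 31.6% to 53.6% in vector, 75.1% to 78.3% with S136X and 87.6% to 90.2% with R58Q. They were picked for their rise in mutant cells.

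The genes next to the cluster served as local controls. Within 200 kb on either side the table lists 18 other genes, of which 10 had enough counts to be tested with S136X and 9 with R58Q. Genes had to pass both an adjusted p of 0.05 (edgeR) and a fold of 1.5 to be called. None of the local genes was called with S136X, with R58Q or between the mutants. Of all genes tested, 3.87%, 7.63% and 0.434% were called in these comparisons, so that few or no calls among so few genes are near the background. DESeq2 also called 0 in each, and an unadjusted p under 0.05 was reached by 4, 5 and 0 of them. Their log2 fold changes ran from -0.63 to 0.27 with S136X (median -0.04) and from -0.19 to 0.45 with R58Q (median 0.20), against medians of -0.02 and -0.03 over all genes tested.

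Some neighbours shifted by less than the fold required. CIAPIN1, an iron-sulfur protein gene 12.1 kb beyond CCL17, went from 41.9 to 50.3 CPM with S136X and to 52.7 CPM with R58Q (log2 fold change 0.26, adjusted p = 0.0281, and 0.33, adjusted p = 0.0128, edgeR). RSPRY1 (log2 fold change 0.33, adjusted p = 0.0122) and POLR2C, a subunit of RNA polymerase II (0.26, adjusted p = 0.0261), were also past the adjusted p with R58Q by edgeR. PLLP, the nearest expressed gene on the CCL22 side at 74.1 kb, differed by -0.12 ± 0.372 (SE) with S136X and by -0.13 ± 0.269 with R58Q. It was low (1.34 CPM in vector), and 5089 of its bases overlap ARL2BP, which differed by -0.22 and -0.19. PSME3IP1 (-0.03 and 0.05), COQ9 of ubiquinone synthesis (-0.04 and -0.05), DOK4 (-0.07 and 0.20) and CCDC102A (0.27 and 0.45) stayed under the call threshold. CCDC102A was called with R58Q when vector replicate 1 was left out, the count then being 1. AC009090.1, an RNA gene tested with S136X only, differed by -0.63 ± 0.512 at 0.329 CPM in vector and lies wholly within ARL2BP. The counting is not stated to use strand, so that reads of overlapping genes may be shared.

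Beyond the window on the CCL22 side, the nearest tested gene, CPNE2, was not called and differed by -0.40 with S136X and -0.35 with R58Q. Widening the window to 500 kb gave 2 called genes with S136X, 2 with R58Q and 1 between the mutants, named here after their values were seen. Over all genes tested, 3.87%, 7.63% and 0.434% were called in these comparisons, and nothing is read from these counts. HERPUD1, a gene of endoplasmic reticulum protein degradation, was called with both mutants (0.64 and 0.65), and the RNA gene AC009090.5 fell by 0.74 on the log2 scale with S136X. NLRC5, the activator of MHC class I genes, was called with R58Q (1.19, adjusted p = 8.46e-05, edgeR) and for R58Q over S136X (0.83, adjusted p = 0.0387).

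**Figure D3:**
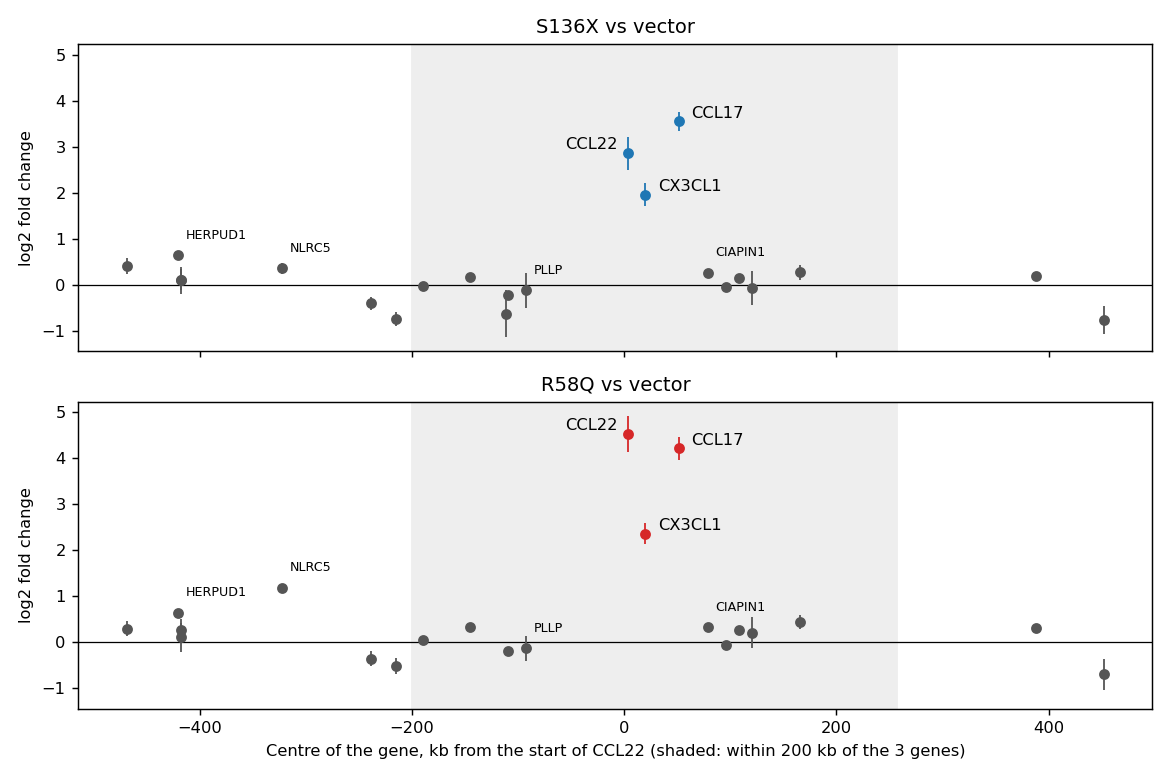
Log2 fold change over vector of each tested gene within 500 kb of the cluster, plotted at the gene's centre in kb from the start of CCL22, with S136X above and R58Q below. Coloured points are CCL22, CX3CL1 and CCL17, grey points are other genes and bars are standard errors. The coloured points lie between 1.96 and 4.54, while the grey points in the shaded 200 kb window lie between -0.63 and 0.45.

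Among the receptors of the 3 ligands, CCR4 was itself detected at a very low level. It had 4, 5 and 2 counts in the vector libraries, 8, 4 and 1 with S136X, and 14, 29 and 32 with R58Q. All R58Q libraries were above the others, and none of the rest exceeded 0.273 CPM. The fitted log2 fold change with R58Q was 2.84 ± 0.464 (SE), and CCR4 was too low to be tested with S136X. It passed the filter on low counts only through its R58Q libraries, so that its call with R58Q is not read as support. The ratio of the summed counts in R58Q over vector was 7.42, with a 95% counting interval of 3.92 to 15.5 (exact Poisson, counting error only). For R58Q over S136X the ratio was 5.63, with an interval of 3.10 to 11.1. Both intervals leave out the spread between libraries and rest on the same selected values, so that neither is read as support. CX3CR1, the receptor of CX3CL1, had 1 to 7 counts in every library and was not tested. ACKR2, a scavenger of inflammatory CC chemokines, had at most 3 counts.

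The enzymes that act on these ligands did not pass the test. ADAM10, which sheds CX3CL1, stood at 64.2 ± 4.06, 59.1 ± 6.75 and 63.6 ± 6.84 CPM in vector, S136X and R58Q (SD, n = 3), with log2 fold changes of -0.12 ± 0.0903 (SE) and -0.02 ± 0.0873. ADAM17 differed by -0.06 ± 0.0755 and 0.07 ± 0.0587. The protease CTSS, a cathepsin that can cut CX3CL1, differed by 0.01 ± 0.071 and 0.11 ± 0.0548. DPP4, which trims the amino end of CCL22, had at most 2 counts.

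Of the 27 receptor and enzyme genes listed, 10 were tested with S136X and 11 with R58Q. With S136X 1 rose and 1 fell, and with R58Q 3 rose, CCR4 among them, and 1 fell (median log2 fold change -0.03 and 0.12). The counts with R58Q thus include a gene that passed the filter only through its R58Q libraries. Over all genes tested, 2.05% rose and 1.82% fell with S136X, 4.09% rose and 3.54% fell with R58Q, and 0.27% were higher and 0.165% lower with R58Q than with S136X. CCR7, the receptor for lymph node entry, rose from 34.4 to 71.1 CPM with S136X (1.05, adjusted p = 0.0187) and to 124 CPM with R58Q (1.85, adjusted p = 0.00195, edgeR). CXCR4, which retains B cells in marrow and germinal centre dark zones, fell by 0.82 and by 0.66 on the log2 scale, the latter call being lost in 5 of 6 fits that left out 1 library. ACKR3, a scavenger of CXCL12, rose with R58Q (0.66, adjusted p = 0.0316, edgeR), a call lost in 4 of 6 such fits. Between the mutants 0 were called by edgeR, 3 had an unadjusted p under 0.05 and 2 were called by DESeq2, and the replicate block also gave 2, CCR4 and CCR7. The count with S136X was 0 without vector replicate 2 or S136X replicate 3 and 1 without vector replicate 1, and that with R58Q was 2 without vector replicate 2 or R58Q replicate 1.

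The other chemokine ligands that were called all rose, while CXCL16 fell by less than the fold required. CXCL16 went from 19.7 to 15.7 CPM with S136X and to 13.9 CPM with R58Q, every mutant library lying below every vector library. Its log2 fold changes were -0.33 (adjusted p = 0.0595) and -0.51 (adjusted p = 0.0173, edgeR). CCL28 was also lower in every R58Q library than in vector (-0.63, adjusted p = 0.116, edgeR) but was not called. Of 45 listed, 43 were in the table and only 9 could be tested with S136X and 10 with R58Q. With S136X 5 rose and 0 fell, with a median log2 fold change of 1.04, and with R58Q 6 rose and 0 fell, with a median of 1.21. The shares of all genes tested that rose and fell were 2.05% and 1.82% with S136X and 4.09% and 3.54% with R58Q. For R58Q over S136X 0.434% were called. CXCL10, a CXCR3 ligand, rose from 3.82 to 9.67 CPM with S136X (1.34, adjusted p = 0.0397) and to 19.0 CPM with R58Q (2.31, adjusted p = 0.00494, edgeR). CCL3 (0.79 and 1.27) and CCL4 (1.04 and 0.99), inflammatory CC chemokines, rose with both mutants, as did their near-identical copies CCL3L3 (1.25 and 1.62) and CCL4L2 (1.27 and 1.25), whose reads may be split between copies. The CCL4 call with R58Q was lost without vector replicate 1, vector replicate 2, R58Q replicate 2 or R58Q replicate 3 (0.76 to 1.012) and under both other scalings, and that of CCL4L2 without vector replicate 2 (1.29). CXCL8, a neutrophil chemoattractant, rose with R58Q from 0.390 to 1.47 CPM (1.90, adjusted p = 0.0207, edgeR), a call lost without vector replicate 1 (1.80) or vector replicate 3 (1.69). Its vector libraries held 11, 19 and 9 counts, so that it passed the filter on low counts only through its R58Q libraries. The count with R58Q includes CXCL8, whose call is not read as support. Between the mutants edgeR and DESeq2 each called 0, while 2 had an unadjusted p under 0.05 and the block called 1, CXCL10 (0.95, adjusted p = 3.28e-07, edgeR). The count with S136X was 0 without vector replicate 2 or S136X replicate 3, 1 without S136X replicate 2, 2 without vector replicate 1 and 3 without vector replicate 3, and it was 2 when libraries were scaled by total counts only.

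Per kilobase, the highest of these other ligands was CXCL16 in vector (7.06 CPM per kb), CCL3 with S136X (11.1 CPM per kb) and CXCL10 with R58Q (16.1 CPM per kb). CCL22 and CCL17 both averaged above these levels with either mutant. CX3CL1 averaged below CCL3, CCL4 and CXCL10 in each group.

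CCL17 and CCL22 are known targets of IL-4 and IL-13 signalling through STAT6, and this list was read beside them. Of 15 genes listed, 11 were tested. With S136X 2 rose and 2 fell (median 0.07), and with R58Q 2 rose and 1 fell (median 0.19). The shares of all genes tested that rose and fell were 2.05% and 1.82% with S136X and 4.09% and 3.54% with R58Q. For R58Q over S136X 0.434% were called. IL4I1, a secreted amino acid oxidase, had 13.3, 20.1 and 17.1 CPM in vector libraries, 84.2, 63.2 and 64.8 CPM with S136X, and 264, 126 and 211 CPM with R58Q. These ranges did not overlap, and the log2 fold changes were 2.07 (adjusted p = 0.000278) and 3.57 (adjusted p = 0.000141, edgeR). SOCS1, an inhibitor of JAK kinases, rose by 0.97 (adjusted p = 0.0307) and 2.20 (adjusted p = 0.000109, edgeR), the former being lost in 5 of 6 fits that left out 1 library. IL13RA1, a chain of the IL-4 and IL-13 receptor, fell by 0.79 and 0.77 on the log2 scale. FCER2, the low-affinity IgE receptor and a classic IL-4 target in B cells, fell by 0.74 with S136X and was at -0.58 with R58Q (adjusted p = 0.0283, edgeR), under the fold required, though it was called there with the block (-0.60, adjusted p = 0.00461), under the other scalings and without R58Q replicate 1 or 2. STAT6 (0.15 and 0.14) and IL4R (-0.03 and 0.07) were not called. IL4 had at most 5 counts and IL13 at most 2, so that neither was tested. IL4I1 and SOCS1 were called for R58Q over S136X with the block (adjusted p = 1e-09 and 7.09e-07) but not by edgeR without it (adjusted p = 0.056 and 0.0635). Both were also called without the block by DESeq2, by edgeR with no low-count filter and with all 9 libraries in one fit. The R58Q count was 5 without R58Q replicate 1.

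Most listed subunit and inhibitor genes of NF-kB, the pathway downstream of BCL10, rose. All 11 listed genes were tested, and with S136X 6 rose and 0 fell (median 0.65), while with R58Q 8 rose and 1 fell (median 0.69). The shares of all genes tested that rose and fell were 2.05% and 1.82% with S136X and 4.09% and 3.54% with R58Q. For R58Q over S136X 0.434% were called. NFKBIA, the main inhibitor and itself a target of NF-kB, went from 304 ± 21.3 CPM to 603 ± 31.7 CPM with S136X and to 1243 ± 202 CPM with R58Q (SD, n = 3). Its log2 fold changes were 0.99 (adjusted p = 0.000236) and 2.03 (adjusted p = 4.93e-05, edgeR). NFKB2 (0.87 and 1.40), NFKBIE (1.02 and 1.32), NFKB1 (0.82 and 1.17), NFKBIZ (0.65 and 0.81) and NFKBID (0.78 and 0.69) rose with both mutants. The subunit genes RELA (0.15 and 0.07) and REL (0.04 and -0.11) were called with neither mutant. BCL3, a nuclear member of the IkB family, fell by 0.61 on the log2 scale with R58Q and is named after its value was seen. That call was lost without vector replicate 1 (-0.53), R58Q replicate 2 (-0.58) or R58Q replicate 3 (-0.54). NFKBIA was the only gene of this list called for R58Q over S136X (1.03, adjusted p = 0.0138, edgeR), and that count was 0 without S136X replicate 2, S136X replicate 3 or R58Q replicate 3.

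**Figure D4:**
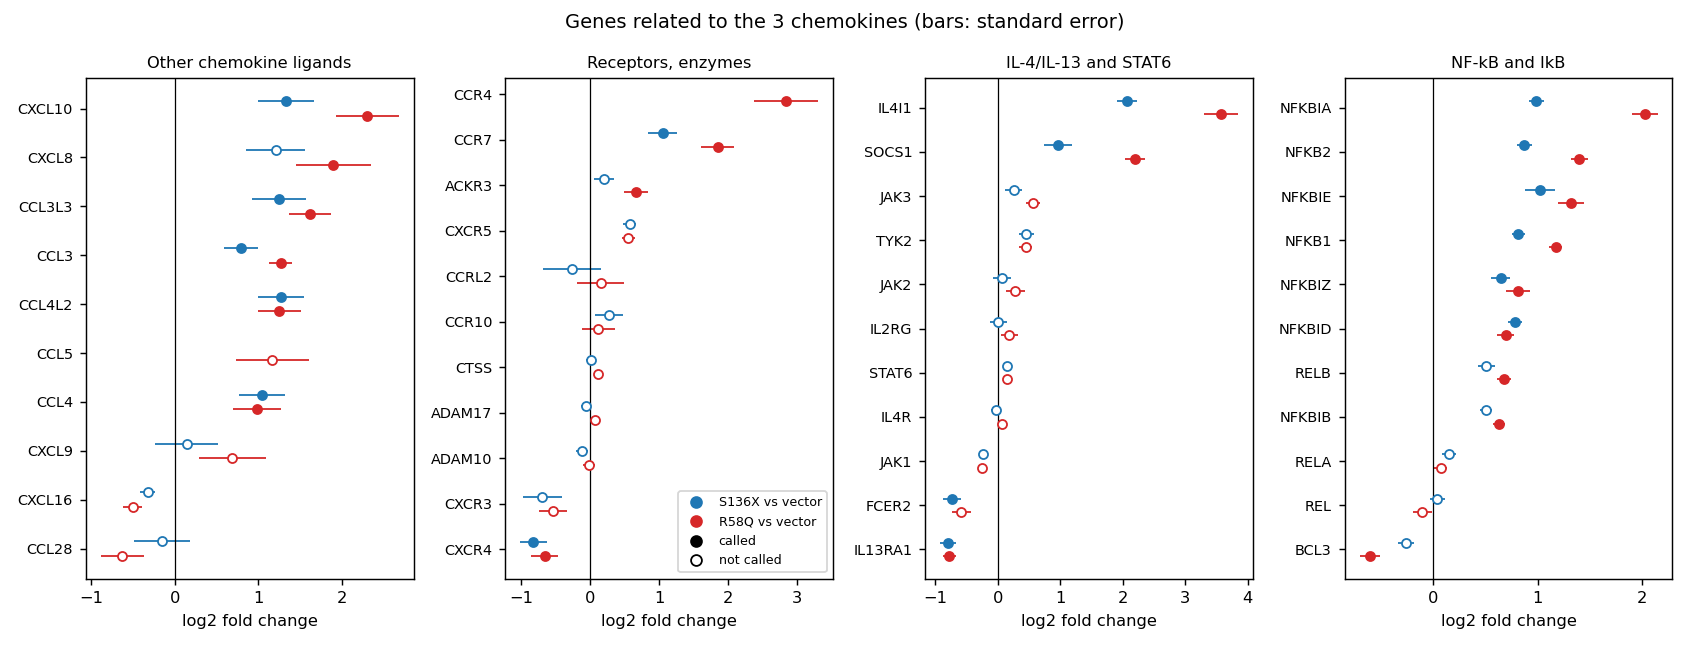
Log2 fold change over vector of the tested genes of 4 lists: other chemokine ligands, chemokine receptors and ligand-processing enzymes, IL-4 and IL-13 receptor and STAT6 genes, and NF-kB and IkB genes. Blue is S136X, red is R58Q, filled points were called and bars are standard errors. CXCL10 (2.31), CCR4 (2.84), IL4I1 (3.57) and NFKBIA (2.03) lead their lists with R58Q. With R58Q, CCR4 and CXCL8 passed the filter on low counts only through their R58Q libraries.

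Likeness of pattern was measured as the mean absolute difference of log2 CPM over the 9 libraries, each gene centred on its vector mean, among 15860 genes. Among the 5 genes most like CCL22 were DRAM1 (0.36), the lymphotoxin gene LTA (0.42), LRRN3 (0.48) and CCL17 (0.51). For CCL17 they were BCL10 (0.36), the cytokine subunit gene EBI3 (0.39), LRRN3 (0.48), LTA (0.49) and CCL22 (0.51). By this measure the CCR4 ligands were each among the 5 genes most like the other. Those most like CX3CL1 were the kinase gene MAP3K8 (0.19), AC016831.6 (0.21), the phosphatase gene DUSP15 (0.21), ABTB2 (0.22) and AIRE (0.24). CX3CL1 differed from CCL22 by 1.35 and from CCL17 by 1.26 on this measure, so that the gene lying between them was the least like. All points share the vector libraries and the centring, and no test was made. The measure depends largely on the size of the rise over vector, for which the 3 genes were picked. Nothing further is read from these ranks. For R58Q over S136X the log2 fold change of CCL17 (0.66) lay nearer that of CX3CL1 (0.40) than that of CCL22 (1.67).

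As a description of genes picked for this likeness, LTA averaged 27.8 CPM in vector, 169 CPM with S136X and 546 CPM with R58Q. DRAM1 averaged 0.757, 6.14 and 29.1 CPM and EBI3 averaged 5.57, 40.1 and 88.3 CPM. BCL10 itself, whose counts include the cell's own gene and the construct, differed by -0.31 between the mutants (adjusted p = 0.363, edgeR). Its level was not higher with R58Q in any replicate pair, and its part in the level of CCL22 was not tested.

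Since dendritic cells and macrophages also make CCL17 and CCL22, their markers were read beside the result. The 6 monocyte, macrophage and dendritic cell markers summed to 1.72 to 3.12 CPM in vector libraries, 3.69 to 7.65 CPM with S136X and 6.26 to 12.01 CPM with R58Q. Most of this was CD1C, which B cells can also express, at 2.13 ± 0.794, 5.51 ± 1.89 and 8.33 ± 3.01 CPM (SD, n = 3). CD14, LYZ and CSF1R each stayed at or under 0.372 CPM, and CLEC10A and CLEC9A had 0 counts in all 9 libraries. The part of CD1C in the result was not tested. The 3 endothelial markers, of a cell type that makes CX3CL1, summed to 17.2 to 19.2, 7.72 to 14.4 and 11.1 to 16.8 CPM, all from PECAM1, since CDH5 and VWF had 0 counts. The 4 epithelial markers summed to 37.9 to 65.5 CPM over all libraries, mostly from EPCAM, with KRT14 at 0 counts. In bulk RNA, more cells making a chemokine and more of its RNA per cell cannot be told apart.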

How the data were processed

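RNA of 9 RIVA libraries was sequenced from polyadenylated transcripts (Nugen kit, single reads). The submitters' processing notes name cutadapt, STAR, Picard and the build hg38, with no versions. The counting program, annotation and strand setting are not given in the sources used here. The authors deposited whole read counts per gene for each library, which were used as deposited, and normalized values, which were not used. The table has 0 numeric columns without a sample.

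Tests were run with edgeR 4.0.16 under R 4.3.3. The 6 libraries of a comparison were filtered with filterByExpr (at least 10 counts, total 15), scaled with TMM factors and fitted by the quasi-likelihood method, with Benjamini-Hochberg adjustment over all genes tested. The SE is the size of the log2 fold change over the root of F. CPM used TMM factors over all 9 libraries, and log2 CPM a prior count of 2. On simulated data for S136X against vector, with 200 of 15280 genes changed by 2-fold, edgeR called 140 of these and 6 others.

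The 3 genes, the lists and the rule for naming genes were chosen with earlier results of these data known. Named were the 3 genes, BCL10, the tested local genes and the nearest beyond the window, the receptors and enzymes of the 3 ligands, the called genes of each list (at most 6 by size with R58Q and 3 in each other comparison), and the 5 genes most like each of the 3. Some genes that these rules select are not reported here. Libraries with the same replicate number in the labels were taken as pairs, although neither the study nor the labels state a pairing. The deviations from group means of same-numbered libraries correlated in 9 of 9 pairs at 0.143 to 0.626 (median 0.425). The median for different numbers was -0.251. Deviations cancel out within a group, so that the values for different numbers are not independent of those for the same number. Exon lengths and coding sequences came from GENCODE (GRCh38) and the promoter from RefSeq (GRCh38.p14). The alternatives were DESeq2 1.42.0, other scalings and count filters, all libraries in one fit, the replicate block, each library left out, and windows of 100 and 500 kb. Intervals on counts cover counting error only. With 3 libraries a group, depths of 28047713 to 33122267 counts limit genes of a few counts, such as CCR4.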

Additional observations from a re-analysis of the deposited data

Results flagged for a closer look

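NFKBIA, the inhibitor of NF-kB that is also its target, differed between the mutants in its response over vector. R58Q libraries stood above S136X libraries in 3 of 3 replicate pairs, by 1.03 ± 0.115 on the log2 scale (SE, adjusted p = 0.0138, edgeR quasi-likelihood test). The call was lost without S136X replicate 2, S136X replicate 3 or R58Q replicate 3 (0.99 to 1.03). In the main fit, which has no replicate block, it was the only gene of the 4 lists for which this edgeR test passed both thresholds. With the block CCR4, CCR7, CXCL10, IL4I1 and SOCS1 also passed. IL4I1 and SOCS1 passed without it by DESeq2, by edgeR with no low-count filter and with all 9 libraries in one fit. CCR4 and CCR7 did so by DESeq2 and by edgeR with no low-count filter. IL4I1 did so by edgeR with total counts only and without R58Q replicate 2. CCR4 passed the filter on low counts only through its R58Q libraries, so that its call is not read as support.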

How the results depend on the processing

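The log2 fold changes of CCL22, CX3CL1 and CCL17 kept their direction under each scaling, filter, tool, fit and left-out library. Without 1 library, CCL22 ranged from 2.57 to 3.38 with S136X, from 4.25 to 5.06 with R58Q and from 1.44 to 1.82 for R58Q over S136X. CX3CL1 ranged from 1.59 to 2.15, from 2.15 to 2.57 and from 0.18 to 0.76, and CCL17 from 3.39 to 3.79, from 3.99 to 4.45 and from 0.42 to 0.83. The replicate block raised the genes called over the whole table from 601 to 1014 with S136X and from 66 to 446 for R58Q over S136X, and for R58Q over S136X it raised the receptors from 0 to 2, the IL-4 list from 0 to 2 and the other ligands from 0 to 1. With no low-count filter the whole table gave 934 with S136X and 165 for R58Q over S136X, where the receptors and the IL-4 list gave 2 each. DESeq2 gave 145, 2 and 2 for these, and all 9 libraries in one fit gave 114 and, for the IL-4 list, 2. Total counts gave 1 for the IL-4 list there and 2 for the other ligands with S136X. The 500 kb window gave 2, 2 and 1 called genes, where 3.87%, 7.63% and 0.434% of all genes tested were called. Without 1 library, the whole table gave 279 to 705 with S136X, 719 to 1248 with R58Q and 5 to 63 for R58Q over S136X. The other ligands gave 0 to 4 with S136X, the receptors 0 to 3 with S136X and 2 to 4 with R58Q, the IL-4 list 3 to 5 with R58Q and 0 to 1 for R58Q over S136X, NF-kB genes 0 to 1 for R58Q over S136X, and local genes 0 to 1 with R58Q. For fits with fewer libraries the smaller design is part of the setting, and the cause of the other shifts was not tested.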
